A study of Mus musculus with 6 samples.

Results

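The 8 genes described here, Fmod, Lox, Mmp2, Fbln5, Fstl1, Serpinf1, Sparcl1 and Sdc1, encode proteins of the extracellular matrix, enzymes that remodel it and a cell-surface proteoglycan that binds it. They were chosen by name for their link to the matrix, with earlier values of the same knockout comparison known. Their differences between genotypes are therefore given as a description. The array annotation assigns 22 probe sets to these genes, of which 9 held values, 2 for Sdc1 and 1 for each other gene, among 643 measured probe sets for genes. The other 13 were not analysed here. The 8 genes are part of 494 genes that could be named by 1 symbol.

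RNA of whole hearts was measured on 1 Affymetrix expression array per heart, in 3 wild-type mice and 3 Pgc1b knockout mice. Both genotypes were on a mixed background of sv129 and C57BL/6. No treatment is given, nor the age of the mice, and the labels name no tissue-specific driver for the knockout. Pgc1b, now called Ppargc1b, encodes a coactivator of nuclear receptors, and its own transcript was not analysed here, so the genotype labels have no check in these values. Of the genes that define heart muscle, the cardiac actin Actc1 was at a log2 signal of 14.09 to 14.15 and the fatty acid carrier Fabp3 at 13.47 to 13.62 in the 6 hearts. Because the tissue is whole heart, fewer cells of a type and less RNA per cell cannot be told apart. Wild-type replicates 1 and 3 stood apart in 5 of the 8 genes, as their lowest and highest heart.

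The cardiac matrix is a network of collagen and elastic fibres laid down mainly by fibroblasts, and it carries force between heart muscle cells. Its fibres are assembled with the help of small proteoglycans and fibulins, stiffened by crosslinking enzymes and cut by metalloproteinases. Matricellular proteins and cell-surface proteoglycans tune how cells sense this network and the growth factors held in it.

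Promoter sequence is shown for 3 genes whose signals ran together over the hearts, Serpinf1, Fbln5 and Fstl1, and for Sdc1, which did not run with them, so that their letters can be compared. The RefSeq promoter table matched 5 of the 8 genes, these and Fmod, with 2 windows for Fbln5, of which the first is shown. Each sequence is the 250 bases before the annotated start in GRCm38.p6, on the strand of the gene: Serpinf1 at chr11:75422624-75422873 (minus), Fbln5 at chr12:101819120-101819369 (minus), Fstl1 at chr16:37776805-37777054 (plus) and Sdc1 at chr12:8771146-8771395 (plus). Capitals mark matches, on either strand, to the motifs searched. The letters were TATAAA for the TATA box, CCAAT for the box of that name, and GGGCGG for the GC box. For regulated factors they were TGANTCA for AP-1, CATTCC for TEAD, GTCTAGAC for SMAD, and AAGGTCA for the half-site of oestrogen-related receptors, nuclear receptors that Pgc1b coactivates. No match overlaps another.

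Serpinf1: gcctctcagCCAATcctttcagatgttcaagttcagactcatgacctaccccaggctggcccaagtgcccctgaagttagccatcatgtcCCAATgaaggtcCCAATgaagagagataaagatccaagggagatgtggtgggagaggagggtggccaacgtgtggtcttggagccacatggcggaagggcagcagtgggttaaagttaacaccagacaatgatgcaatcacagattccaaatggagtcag
Fbln5: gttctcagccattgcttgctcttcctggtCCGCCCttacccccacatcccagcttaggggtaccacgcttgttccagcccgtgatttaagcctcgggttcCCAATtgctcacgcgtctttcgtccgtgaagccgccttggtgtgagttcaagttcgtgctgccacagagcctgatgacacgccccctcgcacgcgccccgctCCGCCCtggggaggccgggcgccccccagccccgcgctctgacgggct
Fstl1: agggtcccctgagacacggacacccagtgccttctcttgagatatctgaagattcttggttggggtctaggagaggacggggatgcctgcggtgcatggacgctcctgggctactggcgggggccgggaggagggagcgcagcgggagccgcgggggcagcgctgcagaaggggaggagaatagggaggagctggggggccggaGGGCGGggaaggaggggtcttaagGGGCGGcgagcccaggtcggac
Sdc1: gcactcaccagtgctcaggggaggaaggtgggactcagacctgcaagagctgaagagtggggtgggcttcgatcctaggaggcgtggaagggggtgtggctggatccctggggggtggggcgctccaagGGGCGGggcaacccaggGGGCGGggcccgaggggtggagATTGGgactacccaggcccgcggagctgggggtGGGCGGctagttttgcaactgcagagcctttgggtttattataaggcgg

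Serpinf1 held 3 CCAAT boxes, from 241, 160 and 148 bases before the start, and no GC box. Fbln5 held 1 CCAAT box and 2 GC boxes, Fstl1 held 2 GC boxes, and Sdc1 held 1 CCAAT box and 3 GC boxes. Over all 32851 promoter windows of this length, 33.8% held a CCAAT box and 32.7% a GC box. The letters of the TATA box (in 12.4% of windows), AP-1 (6.75%), TEAD (12.6%), SMAD (0.167%) and oestrogen-related receptor (4.08%) motifs were in none of the 4 windows. The G and C content was 51.6% for Serpinf1, 65.2% for Fbln5, 68.0% for Fstl1 and 66.0% for Sdc1, with a median of 52.4% over all windows. Serpinf1, Fbln5 and Fstl1 had no motif in common, as none of the 7 was present in all 3 windows of the covarying genes.

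No common shift of the matrix genes was called in the knockout hearts. Of the 9 probe sets, 5 had a higher and 4 a lower mean, beside 349 higher and 294 lower of all 643 probe sets. Their median difference, knockout minus wild-type, was 0.01 on the log2 scale, beside 0.01 over all 643. By limma 0 of the 9 had an adjusted p under 0.05, where 0% of all probe sets were called. Without the adjustment 1 of the 9, a probe set of Sdc1, had a p under 0.05, against 10.3% of all probe sets. The same Sdc1 probe set was the 1 in which all knockout hearts lay below all wild-type hearts, as in 9.02% of all probe sets, and 0 of the 9 lay wholly above, as in 9.64%. The members were chosen with this comparison known, so nothing is read from these counts. The split of 5 and 4 moved with the setting. It was 2 higher and 7 lower after a further quantile normalization, and 3 and 6 with array weights. It was 1 and 8 after centring each array on its median, with the hybridisation spike covariate, and without wild-type replicate 1, but 6 and 3 without wild-type replicate 3. In these 4 settings the median difference over all 643 probe sets was -0.0319, -0.00664, -0.000155 and 0.0232. Centring moves every difference by the same amount.

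**Figure D1:**
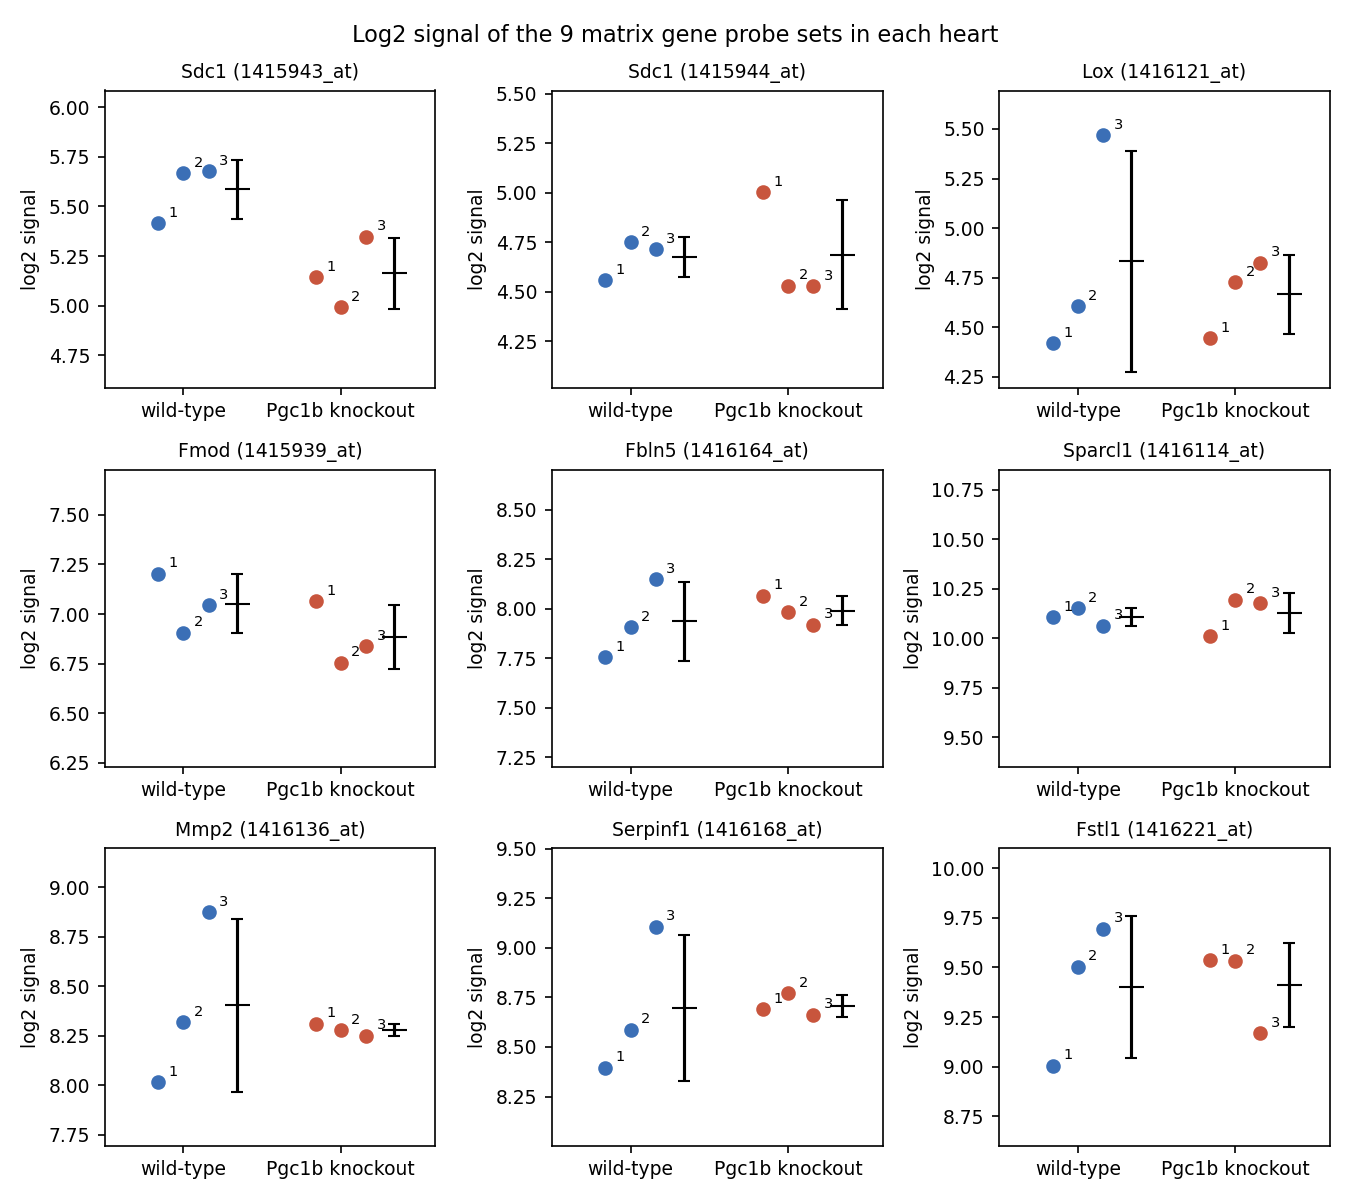
Log2 signal (vertical axes, all spanning the same range) of the 9 probe sets in each wild-type heart (blue) and knockout heart (red), numbered by replicate, with the mean and SD of each genotype in black. Sdc1 at 1415943_at is the 1 probe set whose genotypes do not overlap. Wild-type replicate 3 is the highest heart for Lox, Mmp2, Fbln5, Serpinf1 and Fstl1 and, narrowly, for Sdc1 at 1415943_at.

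Sdc1 encodes syndecan-1, a transmembrane proteoglycan whose heparan sulphate chains bind matrix proteins and growth factors and act as a co-receptor. At probe set 1415943_at the log2 signal was 5.42, 5.67 and 5.68 in the wild-type hearts and 5.14, 4.99 and 5.35 in the knockout hearts. Every knockout heart was thus below every wild-type heart, with the closest pair being wild-type replicate 1 and knockout replicate 3. The means were 5.59 ± 0.15 and 5.16 ± 0.18 (SD, n = 3 each), a difference of -0.43 (95% interval -0.70 to -0.15), or 74.5% of wild type. Leaving out any 1 array gave -0.52 to -0.34, and the difference was -0.71 with the hybridisation spikes as a covariate. Those spikes, RNAs added in a fixed amount before hybridisation, were at 9.69 to 10.15 on the wild-type and 9.32 to 9.68 on the knockout arrays. Every wild-type array was thus above every knockout array, so genotype and spike level cannot be fully told apart. This holds for all differences given with this covariate.

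The second Sdc1 probe set, 1415944_at, did not show this. There the log2 signal was 4.56, 4.75 and 4.72 in wild-type hearts and 5.0, 4.53 and 4.53 in knockout hearts. The genotypes overlapped, with knockout replicate 1 the highest heart and the other knockout hearts the lowest. The difference was 0.01 (95% interval -0.31 to 0.34), and its sign turned in several alternatives, to -0.15 without knockout replicate 1. Across the 6 hearts the 2 probe sets of Sdc1 had a Pearson r of 0.05 (exact permutation p = 0.932) and a Spearman rho of 0.26 (exact permutation p = 0.658), and r was -0.40 without the 2 hearts farthest from the median. Both had a mean signal below 6, with no detection call to set them against background.

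The structural and crosslinking members had lower means for Fmod and Lox and a near-equal one for Fbln5. Fmod encodes fibromodulin, a small leucine-rich proteoglycan that binds collagen and regulates fibril assembly. It had log2 signals of 7.20, 6.91 and 7.04 in wild-type and 7.06, 6.75 and 6.84 in knockout hearts. The genotypes overlapped, since knockout replicate 1 lay above the 2 lower wild-type hearts. The difference was -0.17 (95% interval -0.43 to 0.10), -0.09 without wild-type replicate 1, -0.10 without knockout replicate 2, -0.26 without knockout replicate 1 and -0.08 with the hybridisation spikes as a covariate.

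Lox encodes lysyl oxidase, a copper enzyme that crosslinks collagen and elastin. Lox was at 4.42, 4.61 and 5.47 in wild-type and at 4.44, 4.73 and 4.83 in knockout hearts on the log2 scale. Wild-type replicate 3 stood above the other 5 hearts, which otherwise interleaved. The difference of -0.17 (95% interval -0.77 to 0.44) rested on that heart, and was 0.15 without it. With the hybridisation spikes as a covariate it was -0.71, and its mean signal also lay below 6.

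Fbln5 encodes fibulin-5, a scaffold of elastic fibre assembly that binds integrins. Log2 signals of Fbln5 were 7.76, 7.91 and 8.15 in wild-type and 8.07, 7.98 and 7.92 in knockout hearts. All knockout hearts fell inside the wild-type range. The difference was 0.05 (95% interval -0.20 to 0.31), -0.04 without wild-type replicate 1, 0.16 without wild-type replicate 3 and -0.11 with the hybridisation spikes as a covariate.

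The remodelling enzyme Mmp2, a gelatinase that cuts denatured collagen and basement membrane proteins, had the widest contrast in spread between the genotypes. Its log2 signal was 8.02, 8.32 and 8.87 in wild-type and 8.31, 8.28 and 8.25 in knockout hearts. The knockout hearts lay within 0.06 of each other and inside a wild-type range of 0.86. The means were 8.40 ± 0.44 and 8.28 ± 0.03 (SD, n = 3 each), a difference of -0.12 (95% interval -0.58 to 0.33) that became 0.11 without wild-type replicate 3, -0.32 without wild-type replicate 1 and -0.52 with the hybridisation spikes as a covariate.

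The secreted regulators had means within 0.02 of each other between the genotypes. Serpinf1 encodes pigment epithelium-derived factor, a secreted serpin that limits vessel growth and binds collagen. Its log2 signal was 8.40, 8.59 and 9.11 in wild-type and 8.69, 8.77 and 8.66 in knockout hearts, again with the knockout hearts inside the wild-type range. The difference was 0.01 (95% interval -0.39 to 0.41), -0.14 without wild-type replicate 1, 0.22 without wild-type replicate 3 and -0.28 with the hybridisation spikes as a covariate. Fstl1 encodes follistatin-like 1, a secreted glycoprotein of the SPARC family made by stromal and muscle cells. Fstl1 was at log2 values of 9.0, 9.50 and 9.70 in wild-type and 9.54, 9.53 and 9.17 in knockout hearts. Wild-type replicate 1 and knockout replicate 3 were low and the other 4 hearts high. The difference was 0.01 (95% interval -0.43 to 0.45), -0.19 without wild-type replicate 1, 0.16 without wild-type replicate 3 and -0.19 with the hybridisation spikes as a covariate.

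Sparcl1 encodes hevin, a matricellular relative of SPARC found around vessels and stromal cells. Across the hearts it was at 10.11, 10.15 and 10.06 in wild-type and 10.01, 10.19 and 10.18 in knockout hearts on the log2 scale. It was the steadiest of the 8 genes, with a pooled within-genotype SD of 0.08. The difference was 0.02 (95% interval -0.16 to 0.20), the narrowest interval of the 9 probe sets. It turned to -0.02 with centred arrays.

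Several members varied widely between hearts of 1 genotype. The pooled within-genotype SD, on the log2 scale, was 0.42 for Lox, 0.31 for Mmp2, 0.29 for Fstl1 and 0.26 for Serpinf1. These 4 genes were at percentiles 94.3 to 98.4 of the 494 genes, whose median SD was 0.12. Fbln5, Fmod and Sdc1 were at percentiles 70.0, 72.1 and 76.3, and Sparcl1 at 27.1. Without wild-type replicate 3 the percentiles were 81.6 for Lox, 59.5 for Mmp2, 36.4 for Serpinf1 and 93.7 for Fstl1, and without wild-type replicate 1 they were 97.6, 91.1, 89.3 and 83.4. The SD was higher over wild-type than over knockout hearts in 5 of the 8 genes, Lox, Mmp2, Fbln5, Fstl1 and Serpinf1, against 44.3% of all genes. The count was 4 of 8 without wild-type replicate 1 (37.9% of all genes) and 6 of 8 without wild-type replicate 3 (37.0%). For Mmp2 it was 0.44 against 0.03, and for Serpinf1 0.37 against 0.06. Whether the spread differs between the genotypes was not tested.

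**Figure D2:**
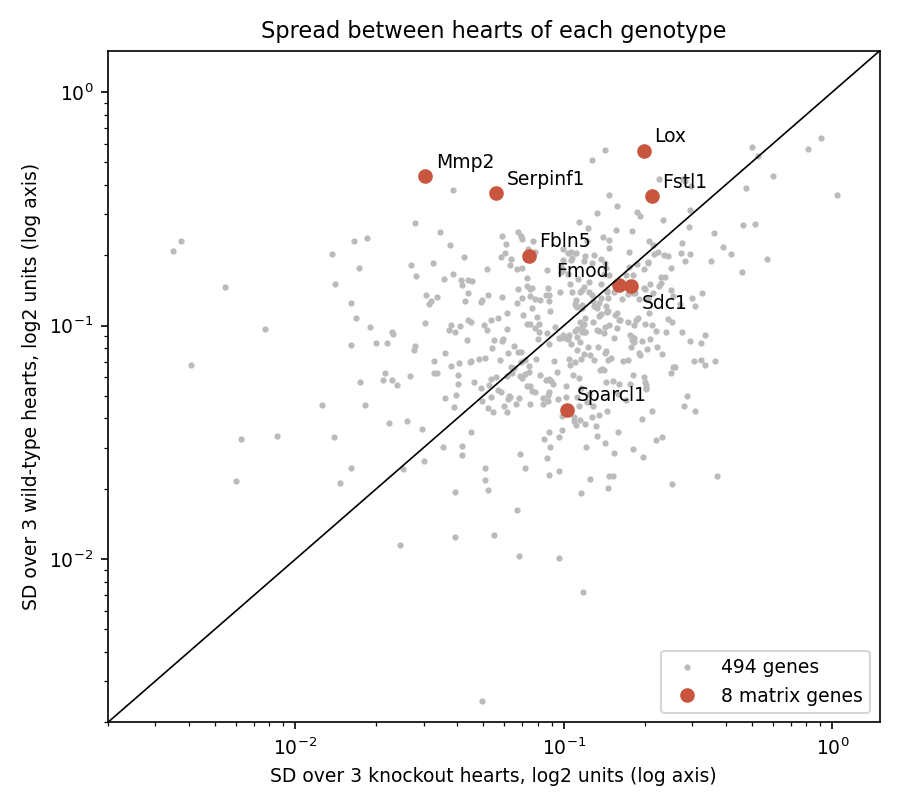
SD of the log2 signal over the 3 wild-type hearts (vertical log axis) against that over the 3 knockout hearts (horizontal log axis) for 494 genes (grey) and the 8 matrix genes (red), with the line of equal SD. Lox, Mmp2, Fbln5, Fstl1 and Serpinf1 lie above the line, Sparcl1 clearly below it, and Fmod and Sdc1 close to it.

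The same 2 wild-type hearts were the extremes in 5 genes. Lox, Mmp2, Fbln5, Fstl1 and Serpinf1 were each lowest in wild-type replicate 1 and highest in wild-type replicate 3 of all 6 hearts. Among the 494 genes 23, or 4.66%, had this order of extremes. The order was picked after these values were seen, and the 23 include the 5 genes, so the share carries no test. From wild-type replicate 1 to wild-type replicate 3 the signal was 2.07-fold higher for Lox, 1.81-fold for Mmp2, 1.64-fold for Serpinf1, 1.62-fold for Fstl1 and 1.31-fold for Fbln5. The median over all genes was 1.02-fold. For Lox this gap between 2 wild-type hearts, 1.05 on the log2 scale, was the widest positive one of all 494 genes. Its mean signal was low, 4.75, at percentile 10.3 of the genes, with no detection call to set it against background.

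**Figure D3:**
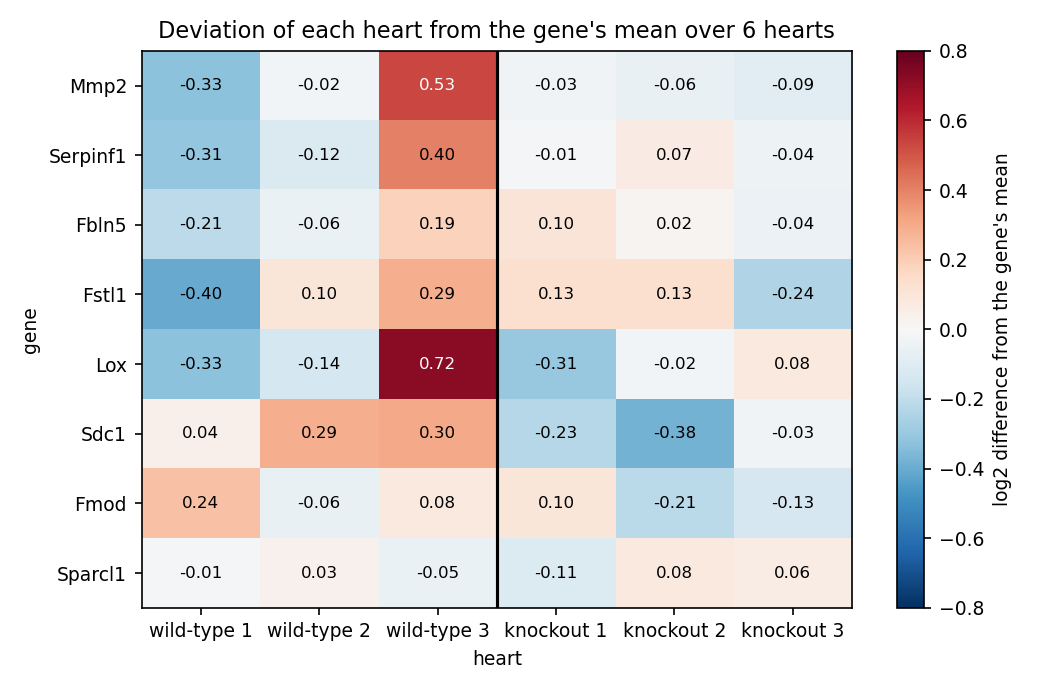
Log2 deviation of each heart (columns) from the mean of the gene over 6 hearts (rows), red above and blue below, for 1 probe set per gene. The upper 5 genes run from -0.21 to -0.40 in wild-type replicate 1 and from 0.19 to 0.72 in wild-type replicate 3, while Fmod, Sparcl1 and Sdc1 show no such order.

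Covariation over the hearts was then compared for all 28 pairs of the 8 genes, to ask whether matrix genes vary together as a proxy for stromal content. The median Pearson r over the 28 pairs was 0.12, beside 0.03 over all 121771 pairs of genes. An r of at least 0.75 was reached by 8 of the 28 pairs, or 28.6%, against 5.52% of all gene pairs. All 8 were among the 10 pairs formed by Lox, Mmp2, Fbln5, Fstl1 and Serpinf1, a set picked after these values were seen, whose median r was 0.87. The other 18 pairs had a median r of -0.14 and reached 0.45 at most. The median over all 28 pairs was 0.46 without wild-type replicate 1 and 0.06 without wild-type replicate 3.

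The closest pair was Mmp2 and Serpinf1, with r = 0.95 (exact permutation p = 0.0222, adjusted p = 0.183 over 28 pairs) and rho = 0.60 (exact permutation p = 0.242, adjusted p = 0.677). Fbln5 and Serpinf1 had r = 0.91 (exact permutation p = 0.0181, adjusted p = 0.183) and rho = 0.94 (exact permutation p = 0.0167, adjusted p = 0.233). Fbln5 and Fstl1 had r = 0.88 (exact permutation p = 0.0153, adjusted p = 0.183) and rho = 0.94 (exact permutation p = 0.0167, adjusted p = 0.233). Of the 28 pairs 7 had an exact permutation p of r under 0.05, 3 had one of rho, and 0 passed the adjustment by either. The lowest r was that of Fmod with Sparcl1, -0.74 (exact permutation p = 0.0986, adjusted p = 0.307), with rho = -0.83 (exact permutation p = 0.0583, adjusted p = 0.327).

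The positive relations rested in part on wild-type replicates 1 and 3. Without these, the 2 hearts farthest from the median of the first gene, r was -0.37 for Mmp2 and Serpinf1, 0.53 for Fbln5 and Serpinf1, and 0.52 for Fbln5 and Fstl1. Lox had -0.87 with Mmp2, 0.16 with Serpinf1, -0.70 with Fbln5 and -0.72 with Fstl1. Over all hearts these were 0.91, 0.90, 0.66 and 0.52. Mmp2 had 0.32 with Fbln5 and 0.82 with Fstl1. For Fstl1 and Serpinf1, r was 0.98 without their farthest hearts, wild-type replicate 1 and knockout replicate 3. For Fmod and Sparcl1 the farthest hearts were wild-type replicate 1 and knockout replicate 2, and r was -0.97 without them. Without wild-type replicates 1 and 3, a choice made after seeing the data, the median r of the 10 pairs was 0.18, with 6 of 10 above 0. Without wild-type replicate 3 alone it was 0.79, without wild-type replicate 1 alone 0.77, and all 10 stayed above 0. Taken as deviations from the genotype means, so that no difference between genotypes enters, the median r of the 10 pairs was 0.90 and that of all 28 was 0.27, beside 0.04 for all gene pairs. All genes of a heart share its array, its amplification and its normalization.

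**Figure D4:**
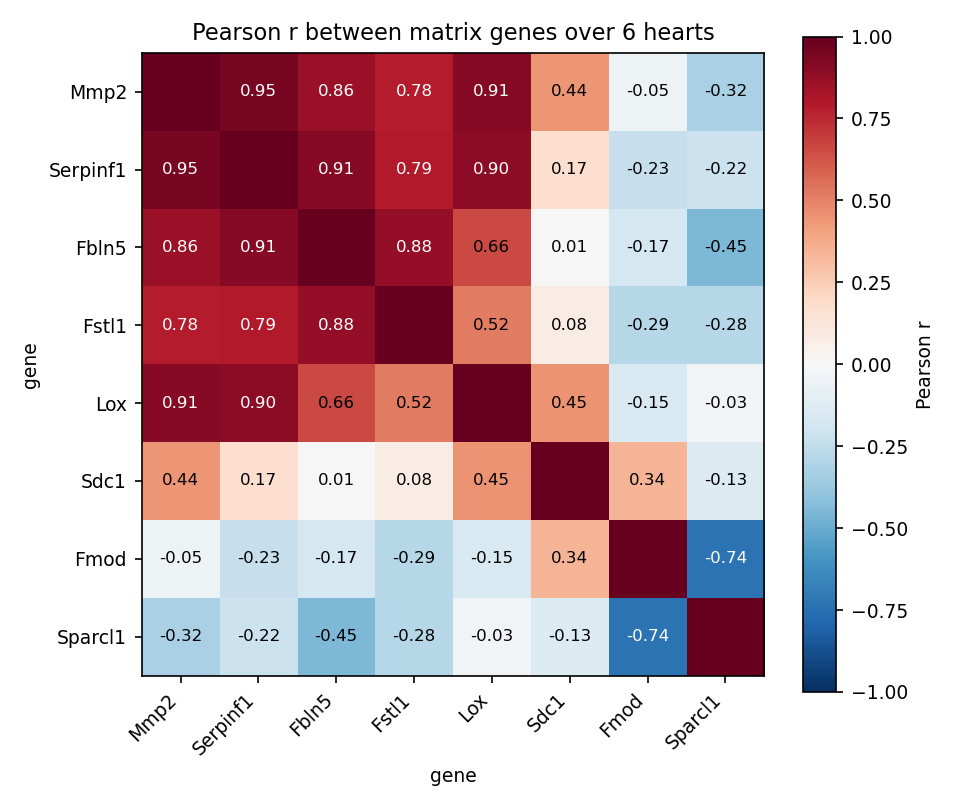
Pearson r over the 6 hearts for each pair of the 8 genes, from -1 (blue) to 1 (red). Mmp2, Serpinf1, Fbln5, Fstl1 and Lox form a block with r from 0.52 to 0.95, and Sdc1, Fmod and Sparcl1 stand outside it.

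As a single level per heart, the mean log2 signal over the 8 genes was 7.54, 7.71 and 8.01 in wild-type and 7.66, 7.65 and 7.65 in knockout hearts. The knockout hearts were alike to within 0.01 and lay between the lowest and the 2 higher wild-type hearts. The difference was -0.10, but 0.03 without wild-type replicate 3 and -0.20 without wild-type replicate 1. Leaving out Sdc1 gave -0.05. The mean over the 5 covarying genes was 7.52, 7.78 and 8.26 in wild-type and 7.81, 7.86 and 7.77 in knockout hearts.

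The 5 other genes whose signals most resembled the 8-gene mean over the 6 hearts were Rab31 (r = 0.97), a small GTPase of vesicle traffic, Ap1s1 (0.95), a subunit of a clathrin adaptor, Pgc (0.94), the gastric protease progastricsin, Plat (0.91), the tissue plasminogen activator, and Rnf34 (0.91), a ubiquitin ligase. The signal of Pgc was low, at 4.54 to 4.96, below 6 in every heart. Plat, itself a protease that acts on matrix and fibrin, was at 7.14, 7.32 and 7.55 in wild-type and 7.34, 7.18 and 7.14 in knockout hearts. It thus had the wild-type order of Mmp2. The 5 genes were picked as the highest of all other named genes over 6 hearts, so these values carry no test. Without wild-type replicate 3 their r was 0.75, 0.81, 0.61, 0.65 and 0.66, and without wild-type replicates 1 and 3 it was -0.84 for Rab31 and 0.53 to 0.76 for the other 4. In the opposite direction, and named after its value was seen, the endoplasmic reticulum chaperone Hsp90b1 had the lowest r, -0.996, with 9.74, 9.48 and 8.99 in wild-type and 9.51, 9.58 and 9.56 in knockout hearts. Without wild-type replicate 3 its r was -0.97, and without wild-type replicates 1 and 3 it was -0.80. Another chaperone of that compartment, Hspa5, had an r of -0.85, and of -0.33 without both hearts. Over the 4 hearts left, the 8-gene mean was 7.71 in wild-type replicate 2 and 7.65 to 7.66 in the knockout hearts. Each r without both hearts thus mostly sets 1 wild-type heart against near-equal knockout hearts.

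Few markers were measured that could place this pattern in a cell type. Of 21 fibroblast markers only Gsn, the actin-severing protein gelsolin, had values, at 11.94, 12.19 and 12.28 in wild-type and 12.28, 12.25 and 12.43 in knockout hearts, with an r of 0.39 to the 8-gene mean. The endothelial receptor Tie1, 1 of 20 markers, had an r of -0.24, and 3 of 21 heart muscle markers, Actc1, Fabp3 and Gja1, had -0.69, -0.06 and -0.54. Of 27 leukocyte markers only Mpo was measured (r = -0.03), of 14 red cell markers Bpgm (0.03) and Car1 (0.19), and of 15 fat cell markers Scd1 (0.74). Mean signals in wild-type and knockout hearts were low, below 6, for Mpo (3.50 and 3.59) and Car1 (3.92 and 4.05). Actc1 varied little, from 14.09 to 14.15 over the hearts, at the top of the signals measured, so its r rests on small differences. Outside these lists, and named after their values were seen, the leukocyte actin-bundling protein Lcp1 had an r of 0.90, with 7.12, 7.18 and 7.68 in wild-type and 7.34, 7.08 and 7.16 in knockout hearts, and Cd34, a surface protein of vascular and stromal cells, an r of 0.88. Without wild-type replicate 3 these were 0.30 and 0.39, and without wild-type replicates 1 and 3 they were 0.02 and -0.225. Several marker values also moved with these hearts. Without wild-type replicate 3, r was 0.67 for Gsn, -0.33 for Tie1, -0.91 for Actc1, -0.33 for Fabp3 and -0.21 for Gja1. It was 0.45 for Mpo, 0.61 for Bpgm, -0.44 for Car1 and 0.43 for Scd1. Without wild-type replicate 1 instead, the values in this order were -0.12, -0.01, -0.55, -0.04, -0.44, -0.35, -0.42, 0.23 and 0.73. Without both they were -0.72, 0.25, -0.87, -0.73, 0.29, -0.11, -0.13, -0.97 and 0.80. All values without both hearts rest on 4 hearts, in which the 8-gene mean ran only from 7.65 to 7.71. They mostly set wild-type replicate 2 against near-equal knockout hearts. Markers of smooth muscle and pericytes, epicardium, nerve and skeletal muscle were not analysed here. By genotype 6 of these 9 marker genes had a higher and 3 a lower mean in knockout hearts, and by limma 0 had an adjusted and 0 an unadjusted p under 0.05, against 11.3% of all 494 genes unadjusted. The hybridisation spikes had an r of -0.21 to the 8-gene mean, the poly-A labelling spikes -0.20, and the Actb 3' minus 5' signal, a measure of RNA integrity, 0.32, and the same measure of Gapdh 0.41. To the mean of the 5 covarying genes these were -0.37, -0.13, 0.23 and 0.41. The part of cell content, labelling or RNA quality in the covariation was not tested.

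Other genes of the matrix and its receptors were sparsely covered. Lists of 245 genes in 11 groups, from collagens to integrins and TGF-beta signalling, had 14 measured genes in 6 groups, while collagens, basement membrane, other proteoglycans, elastic fibres and hyaluronan were not analysed here. Of the 14 genes, 10 had a higher and 4 a lower mean in knockout hearts, with a median difference of 0.08 beside 0.01 over all 494 genes. By limma 0 of the 14 had an adjusted p under 0.05 and 1 (7.14%) an unadjusted p under 0.05, against 56 (11.3%) of the 494 genes, 259 of which had a higher mean.

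That gene was Smoc2, a SPARC-related matricellular protein. Its log2 signal was 7.72, 7.74 and 7.77 in wild-type and 7.82, 8.11 and 8.02 in knockout hearts. All knockout hearts lay above all wild-type hearts, by a narrow margin for replicate 1, with a difference of 0.24 (95% interval 0.03 to 0.45). Tgfbi, a TGF-beta-induced matrix protein that binds integrins, was at 6.52, 6.55 and 6.81 against 6.67, 7.02 and 7.12, a difference of 0.31 (95% interval -0.01 to 0.63) with overlap. The other matricellular gene, Ccn1, differed by 0.12, and the other signalling gene, Smad1, by 0.03.

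Among matrix receptors the tetraspanin Cd9, which partners integrins, differed by 0.24 (95% interval -0.03 to 0.52), vinculin (Vcl), which links integrin contacts to actin, by 0.18, and the collagen receptor Ddr1 by -0.08, although its second probe set differed by 0.18. In the proteases the differences were -0.13 for the gelatinase Mmp9, -0.11 for Plat and 0.04 for the sheddase Adam9. The collagen lysyl hydroxylases Plod1 and Plod3, which modify collagen before Lox crosslinks it, differed by 0.10 and 0.06. Ugdh, which makes the sugar precursor of heparan sulphate chains such as those on Sdc1, differed by 0.16 (95% interval -0.26 to 0.58).

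**Figure D5:**
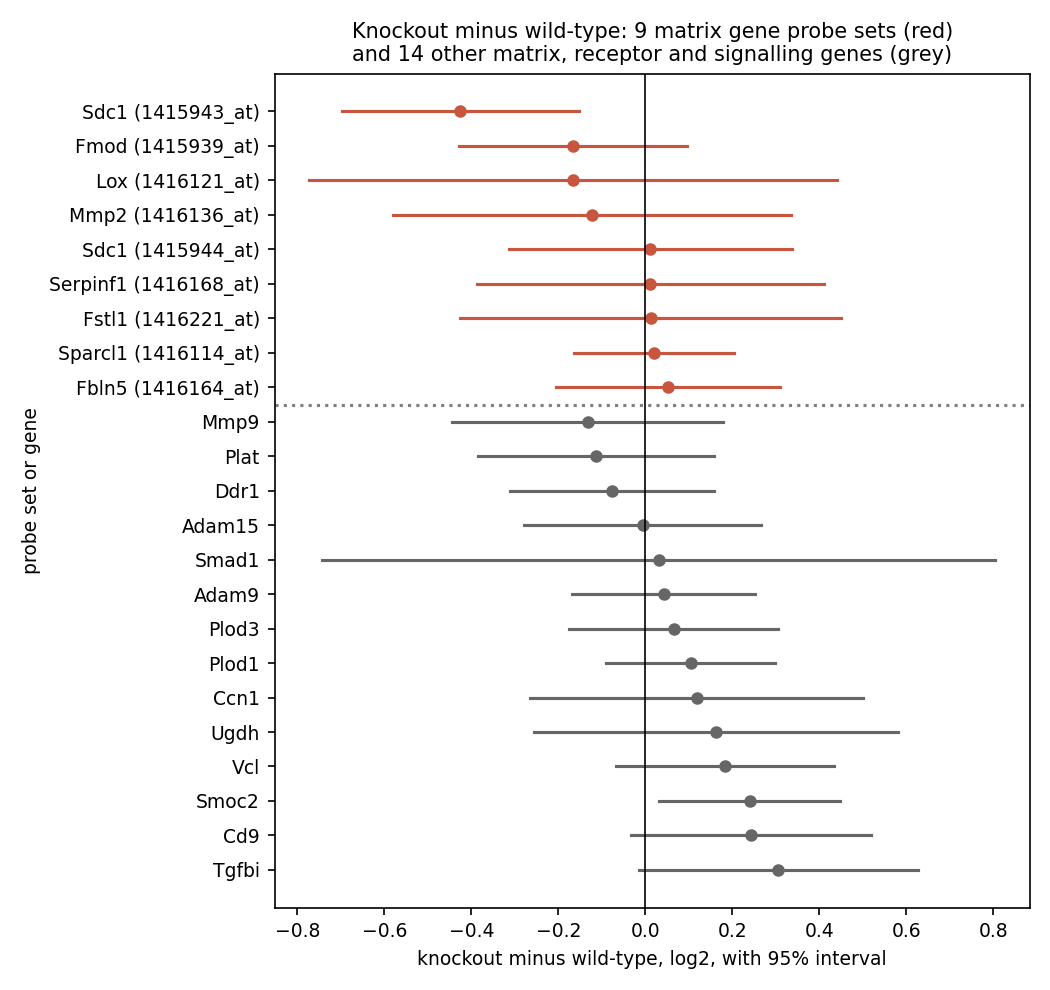
Knockout minus wild-type difference on the log2 scale with its 95% limma interval for the 9 matrix gene probe sets (red) and 14 other matrix, receptor and signalling genes (grey). The intervals of Sdc1 at 1415943_at, below 0, and of Smoc2, above 0, are the 2 that do not include 0.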

How the data were processed

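Log2 expression values, 1 column per array, were deposited by the authors. The submitters' processing notes name RMA, GCOS and Partek, without versions, roles or order. RMA sets all arrays to 1 distribution, so differences are relative to other probe sets. Per the labels' protocols, RNA was amplified by a whole-transcriptome kit before labelling, which can add to the spread between arrays. Values were present in 707 of 45101 rows, 643 for genes and 64 for controls, and ran from 2.56 to 14.1. The other rows were not analysed here. Precision is limited by the number of arrays.

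Symbols came from the platform annotation, updated through a RefSeq table (GRCm38.p6) for all 597 probe sets with 1 symbol. Several symbols were given for 26 and none for 20. All 643 probe sets were fitted with limma 3.58.1 in R 4.3.3 (lmFit, eBayes, two-sided, no covariate, no filter) with Benjamini-Hochberg adjustment over all of them, and the code was tested on simulated data. Intervals are 95% limma intervals. Correlations used the probe set with the highest mean per gene, with exact two-sided permutation of all 720 pairings in Python 3.11.15. The labels call the hearts biological replicates. The members, gene lists, tests and motifs were chosen with earlier results of these data known. Named genes were all members, up to 3 genes per list with the largest difference, and 5 genes most like the member mean, with Hsp90b1, Hspa5, Lcp1 and Cd34 named outside this rule. Alternatives were a further quantile normalization, centring, a prior variance that follows the level, array weights, a mean of at least 6, 1 probe set per gene, the replicate block, the hybridisation spike covariate and each array left out. Leaving out wild-type replicates 1 and 3 together, and either for the spread and the genes set against the 8-gene mean, was added after seeing the data.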

Additional observations from a re-analysis of the deposited data

How the results depend on the processing

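Of 122 alternative values of the 9 member differences, 95 kept their direction, 27 changed sign and 0 reached an adjusted p under 0.05 in limma (0.235 to 0.995). Fmod and Sdc1 at 1415943_at kept their direction in all alternatives run for them. Lox and both Sdc1 probe sets have no value where a mean of at least 6 was required. A further quantile normalization gave -0.00620 for Sdc1 at 1415944_at, -0.0225 for Serpinf1 and -0.0456 for Fstl1. Centred arrays gave -0.0324, -0.0319 and -0.0317 for these and -0.0237 for Sparcl1, and array weights -0.0714 for that Sdc1 probe set and -0.0341 for Fstl1. The hybridisation spike covariate gave -0.0463 for that Sdc1 probe set, -0.106 for Fbln5, -0.283 for Serpinf1 and -0.194 for Fstl1. Leaving out each array gave -0.147 to 0.0909 for Sdc1 at 1415944_at, -0.0142 to 0.0786 for Sparcl1, -0.372 to 0.153 for Lox, -0.316 to 0.113 for Mmp2, -0.0392 to 0.158 for Fbln5, -0.139 to 0.217 for Serpinf1 and -0.187 to 0.159 for Fstl1. A prior variance that follows the level called 2 of the 643 probe sets, 0 of them members, against 0. The 66 probe sets at an unadjusted p under 0.05 became 42 without knockout replicate 2, with a range of 42 to 88. They were 34 higher and 32 lower, but 19 higher and 47 lower with centred arrays. Centring moves every difference by the same amount, and the median over all 643 probe sets went from 0.0117 to -0.0319. The cause of the other changes was not tested.

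Both genotypes carry replicate numbers 1 to 3, without a statement that these pair hearts. Deviations of same-numbered hearts correlated at -0.239, -0.101 and 0.193 over the probe sets, so the numbers were not taken as pairs. With the replicate block 51 probe sets had an unadjusted p under 0.05 and 0 an adjusted one. Only 494 of the array's genes were analysed here, without detection calls.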
